A study of Homo sapiens with 4 samples.

Results

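Respiratory complex I, the NADH dehydrogenase of the inner mitochondrial membrane, is built from subunits encoded in the nucleus and in the mitochondrial genome. It takes electrons from NADH in its N module, passes them along iron-sulfur clusters to ubiquinone in its Q module, and pumps protons across the membrane through a proximal and a distal arm. Core subunits carry the cofactors and the catalytic chemistry, supernumerary subunits surround and stabilise them, and assembly factors help to build the enzyme without remaining in it. Liver cells use it to reoxidise the NADH made by fuel breakdown.

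The genes described here were the protein-coding genes whose symbol begins with NDUFA, NDUFB, NDUFC, NDUFS, NDUFV or NDUFAF. These numbered 48 of the 61541 gene IDs in the deposited table, of which 19967 were protein-coding. They comprised 37 subunit genes, 8 NDUFAF assembly factor genes and 3 others. The 3 others were NDUFA4, which is now counted as a subunit of complex IV, its paralogue NDUFA4L2, and the readthrough gene NDUFC2-KCTD14. Of the 37 subunit genes, 10 belonged to the N module, 6 to the Q module, 9 to the proximal membrane arm and 12 to the distal membrane arm, and 7 encoded core subunits.

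RNA was sequenced from MHCC97H, an established human hepatocellular carcinoma cell line, in 2 control libraries (shCon) and 2 libraries of cells that received an shRNA against UBXN1 (shUBXN1). The study's methods describe pLKO.1 shRNA vectors delivered by lentivirus. Which UBXN1 shRNA the sequenced cells carried is not given in the sources used here. The labels do not say whether the libraries of a group came from separate cultures, so every p-value measures the spread between these libraries, which may be technical.

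UBXN1 itself had 67.1 and 77.3 CPM (counts scaled to library sizes adjusted by TMM) in shCon against 16.8 and 18.5 in shUBXN1. That was a log2 fold change of -2.03 (SE 0.0963, edgeR quasi-likelihood test, Benjamini-Hochberg adjusted p = 9.98e-10), in the direction of the labels. The libraries held 23373700 to 27380508 counts. Counts on the mitochondrial genome made up 5.28% and 5.59% of the shCon libraries and 7.43% and 8.27% of the shUBXN1 libraries, and the NDUF-named genes made up 0.235% to 0.250%. Of the 13 hepatocyte markers examined, HNF4A, TF, ALB, KRT8 and KRT18 were present, while APOA2 was at or near 0 in every library. Among the 12 hepatocyte markers tested, 2 were higher and 7 lower in shUBXN1. The 2 that rose were SERPINA1, also a plasma protein gene (log2 fold change 0.40), and KRT18 (0.31). Past a 2-fold change were the falls of the plasma protein genes FGB (-4.02), TTR (-3.08), ALB (-1.97), TF (-1.96) and APOB (-1.85). TTR held 38 and 34 counts in shCon against 5 and 3 in shUBXN1, and FGB 259 and 234 against 20 and 9. The list summed to 4472 and 4628 CPM in shCon against 3474 and 4063, most of it KRT8 and KRT18. The fibroblast list, with 3 of 6 markers tested, summed to 33.3 and 33.8 against 17.3 and 19.8 CPM, with 1 marker higher and 2 lower. Most of it was LUM (31.7 and 32.3 against 13.9 and 16.7), while COL1A1 and DCN held at most 59 and 17 counts. The immune list, with 3 of 6 tested, summed to 84.0 and 89.7 against 73.9 and 71.5 CPM, with 2 lower. Most of it was CD68 (82.4 and 88.3 against 72.9 and 70.5), LYZ held at most 15 counts, and the defining markers PTPRC and CD3E were at or near 0. The endothelial list, with 3 of 4 tested, summed to 48.4 and 49.9 against 92.6 and 99.5 CPM, with PECAM1 and KDR higher and CDH5 at or near 0. The part of these marker changes in the results below was not tested, and in bulk RNA fewer cells of a type and less RNA per cell cannot be told apart.

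In UBXN1-knockdown cells the complex I subunit genes moved in both directions and by small amounts. At an adjusted p under 0.05, 6 of the 37 subunit genes rose (16.2%), 10 fell (27.0%) and 21 did neither. Over all 16863 genes tested, 28.0% were called higher and 28.2% lower, so the share of subunit genes that fell was close to the background and the share that rose was below it. Their median log2 fold change was -0.12, against 0.02 over all genes tested, and single values ran from -0.78 to 0.50. By sign alone, 24 subunit genes were lower and 13 higher. The 8561 genes of the same range of expression had a median of -0.07, with 28.3% called higher and 38.5% lower. The stricter rule of a 2-fold change with an unadjusted p under 0.05 called 11.8% of genes higher and 6.09% lower, and it called 0 of the 37 subunit genes in either direction. Without TMM scaling, on total counts alone, 10 subunit genes were called higher and 9 lower, and their median was -0.04, while the median of all genes moved to 0.10. Of all 16863 genes tested, 5324 were then called higher and 3969 lower.

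Among the 8 NDUFAF assembly factor genes, 1 rose (12.5%), 4 fell (50.0%) and 3 did neither, with a median log2 fold change of -0.23. These shares stand beside the same background of 28.0% higher and 28.2% lower, and beside 38.5% lower among genes in the expression range of the subunits. By the 2-fold rule, 0 of the 8 genes passed. On total counts 2 of the 8 were called lower, with a median of -0.14. The difference between subunits and assembly factors was not tested, since the 8 and 37 genes are not replicates of a condition. All 48 genes passed the filter on low counts.

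**Figure D1:**
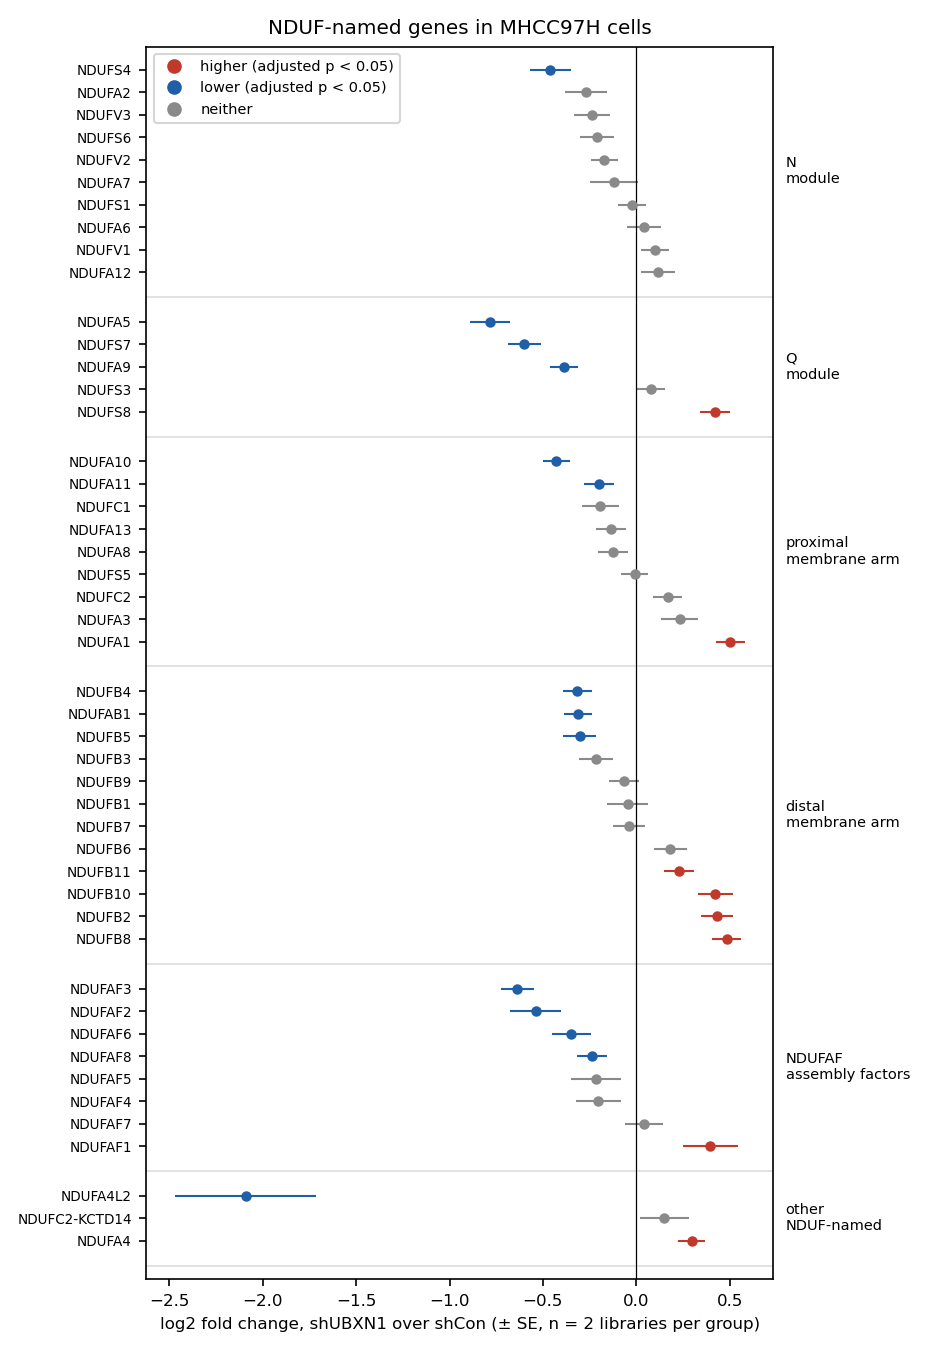
Log2 fold change of shUBXN1 over shCon for the NDUF-named genes reported here, by module and ordered within it. Points are edgeR estimates, bars are ± 1 SE, n = 2 libraries per group, and colour shows the call at an adjusted p under 0.05. The subunit genes lie between NDUFA5 at -0.78 and NDUFA1 at 0.50, and NDUFA4L2 lies apart at -2.09.

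The Q module, where electrons reach ubiquinone, held 4 of the 10 subunit genes that fell. Over all genes tested 28.0% were higher and 28.2% lower, and 38.5% were lower among genes in the expression range of the subunits. Of the 6 Q module genes, 4 fell (66.7%) and 1 rose (16.7%), and the median log2 fold change was -0.33. The same counts were found in every alternative setting but one, which left out shCon replicate 2 and gave 3 falls and 1 rise. NDUFA5, a supernumerary subunit of this module (chr7:123536997-123557904 in GRCh38, minus strand), was at 43.3 and 44.9 CPM in shCon and at 22.5 and 28.8 in shUBXN1. Both shUBXN1 libraries were below both shCon libraries, and the log2 fold change of -0.78 (SE 0.107, adjusted p = 2.36e-05) was the lowest of any subunit gene. NDUFS7, a core subunit that binds an iron-sulfur cluster next to the ubiquinone site (chr19:1383527-1395589, plus strand), was at 37.4 and 38.3 CPM in shCon and at 24.4 and 25.5 in shUBXN1. Its groups did not overlap, with a log2 fold change of -0.60 (SE 0.0874, adjusted p = 4.38e-05). Annotated antisense RNAs cover 51.3% of the exons of NDUFS7, and they held at most 37.5 counts in any library. NDUFA9, which binds a nucleotide cofactor near the membrane side of the Q module (chr12:4649095-4694317, plus strand), was at 82.5 and 80 CPM in shCon and at 60.2 and 64.1 in shUBXN1. The log2 fold change was -0.39 (SE 0.0750, adjusted p = 0.000524).

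The core subunit genes NDUFS8 and NDUFS3 of the Q module did not fall. NDUFS8, a ferredoxin-like core subunit that hands electrons on within the module (chr11:68030617-68036644, plus strand), was at 38.6 and 40.6 CPM in shCon and at 51.6 and 54.5 in shUBXN1. It was the one Q module gene that rose, by a log2 fold change of 0.42 (SE 0.0797, adjusted p = 0.000433). NDUFS3, a core subunit that links the Q and N modules, was at 43.7 and 45.1 CPM in shCon and at 47.1 and 46.5 in shUBXN1, a difference that did not pass the test (0.08, SE 0.0779, adjusted p = 0.422). NDUFS8 and NDUFS7 therefore had opposite calls within 1 module.

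In the N module, which oxidises NADH, 1 of 10 genes fell (10%), 0 rose by the edgeR test and 9 did neither. The median log2 fold change was -0.15, and the shares over all genes tested were 28.2% lower and 28.0% higher. NDUFS4, a supernumerary subunit at the junction with the Q module (chr5:53560633-53683338, plus strand), was at 20.0 and 22.2 CPM in shCon and at 15.3 in both shUBXN1 libraries. It fell by 0.46 on the log2 scale (SE 0.110, adjusted p = 0.00243). The 3 core subunits of the module carry its flavin and most of its iron-sulfur clusters, and none of them passed the test. NDUFV1, which binds the flavin and NADH, was at 100 and 108 CPM in shCon and at 109 and 114 in shUBXN1 (0.10, SE 0.0744, adjusted p = 0.277). NDUFV2, its partner, was at 98.4 and 99.9 CPM in shCon and at 86.0 and 90.1 in shUBXN1 (-0.17, SE 0.0723, adjusted p = 0.0567). Without shUBXN1 replicate 2, NDUFV2 was called lower (-0.22, adjusted p = 0.00923). NDUFS1, the largest core subunit, was at 107 and 101 CPM in shCon and at 99.6 and 105 in shUBXN1, and its groups overlapped (-0.02, SE 0.0736, adjusted p = 0.802). The other 6 N module genes had log2 fold changes of -0.27 for NDUFA2, -0.24 for NDUFV3, -0.21 for NDUFS6, -0.12 for NDUFA7, 0.04 for NDUFA6 and 0.12 for NDUFA12. At an unadjusted p under 0.05, 0 N module genes were higher and 5 lower, and DESeq2 also called 0 higher and 1 lower. Limma on log2(TPM + 1) and total count scaling each called 1 gene higher, NDUFV1. With a replicate block, 5 genes of the module were called lower, NDUFV2 among them. The count of falls in the module was 3 without shUBXN1 replicate 1, 3 without shUBXN1 replicate 2, 2 without shCon replicate 1 and 4 with the GC trend removed.

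In the proximal membrane arm, 1 of 9 genes rose (11.1%), 2 fell (22.2%) and 6 did neither, with a median of -0.12. The shares over all genes tested were 28.0% higher and 28.2% lower. Total count scaling, limma on log2(TPM + 1) and at least 10 counts in every library each gave 3 higher and 1 lower, with NDUFA3 and NDUFC2 called higher. NDUFA1, a small single-span subunit encoded on the X chromosome (chrX:119871832-119876662, plus strand), was at 80.3 and 89.4 CPM in shCon and at 119 and 121 in shUBXN1. Its shUBXN1 libraries were both above the shCon libraries, and the log2 fold change of 0.50 (SE 0.0769, adjusted p = 6.87e-05) was the highest of any subunit gene. NDUFA10, a subunit with a nucleoside kinase fold (chr2:239892450-240025743, minus strand), was at 77.2 and 80.5 CPM in shCon and at 57.6 and 59.6 in shUBXN1 (-0.43, SE 0.0743, adjusted p = 0.000211). NDUFA11 also fell, by 0.20 on the log2 scale (adjusted p = 0.0436), but DESeq2 gave it an adjusted p of 0.125, and the call was lost without shCon replicate 1 (-0.25, adjusted p = 0.0843) or shCon replicate 2 (-0.17, adjusted p = 0.330). The genes of this arm that passed in neither direction had log2 fold changes of -0.19 for NDUFC1, -0.14 for NDUFA13, also known as GRIM-19, -0.12 for NDUFA8, -0.01 for NDUFS5, 0.17 for NDUFC2 and 0.23 for NDUFA3.

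The distal membrane arm held 4 of the 6 subunit genes that rose. Of its 12 genes, 4 rose (33.3%), 3 fell (25%) and 5 did neither, with a median of -0.04, shares near the 28.0% and 28.2% over all genes tested. NDUFB8 (chr10:100523740-100530000, minus strand), whose protein is widely used as a readout of assembled complex I, was at 42.7 and 41.7 CPM in shCon and at 56.7 and 61.3 in shUBXN1 (0.48, SE 0.0790, adjusted p = 0.000123). NDUFB2 (chr7:140690777-140722790, plus strand) was at 33.7 and 35.3 CPM in shCon and at 44.7 and 48.4 in shUBXN1 (0.43, SE 0.0837, adjusted p = 0.000536). NDUFB10 (chr16:1959538-1961975, plus strand) was at 71.5 and 86.2 CPM in shCon and at 99.1 and 112 in shUBXN1 (0.42, SE 0.0937, adjusted p = 0.00151). For these 3 supernumerary subunits of the arm, both shUBXN1 libraries exceeded both shCon libraries. NDUFB11 rose by a log2 fold change of 0.23 (adjusted p = 0.0234), and this call was lost without shCon replicate 1 (0.14, adjusted p = 0.334), without shCon replicate 2 (0.30, adjusted p = 0.0736) and when the GC trend of each library was removed (0.14, adjusted p = 0.155).

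The 3 genes of the distal arm that fell had similar sizes of change. NDUFAB1, the mitochondrial acyl carrier protein, which also serves fatty acid and lipoic acid synthesis, fell by 0.31 on the log2 scale (adjusted p = 0.00229). NDUFB4 fell by 0.32 (adjusted p = 0.00321) and NDUFB5 by 0.30 (adjusted p = 0.00942). Without shCon replicate 2 neither NDUFB4 (-0.30, adjusted p = 0.0636) nor NDUFB5 (-0.29, adjusted p = 0.0925) was called. Those that passed in neither direction were NDUFB3 at -0.22, NDUFB9 at -0.07, NDUFB1 at -0.05, NDUFB7 at -0.04 and NDUFB6 at 0.18. Over the whole enzyme, 1 of 7 core subunit genes rose (14.3%) and 2 fell (28.6%), with a median of -0.02. Of 30 supernumerary subunit genes, 5 rose (16.7%) and 8 fell (26.7%), with a median of -0.12. Both shares of falls were near the 28.2% of all genes tested, and both shares of rises were below the 28.0%.

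Of the 16 subunit genes called, 11 kept their call and direction in all 14 alternative settings tried. These were NDUFA1, NDUFB8, NDUFB2, NDUFB10 and NDUFS8 among the genes that rose, and NDUFA5, NDUFS7, NDUFS4, NDUFA10, NDUFA9 and NDUFAB1 among those that fell.

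**Figure D2:**
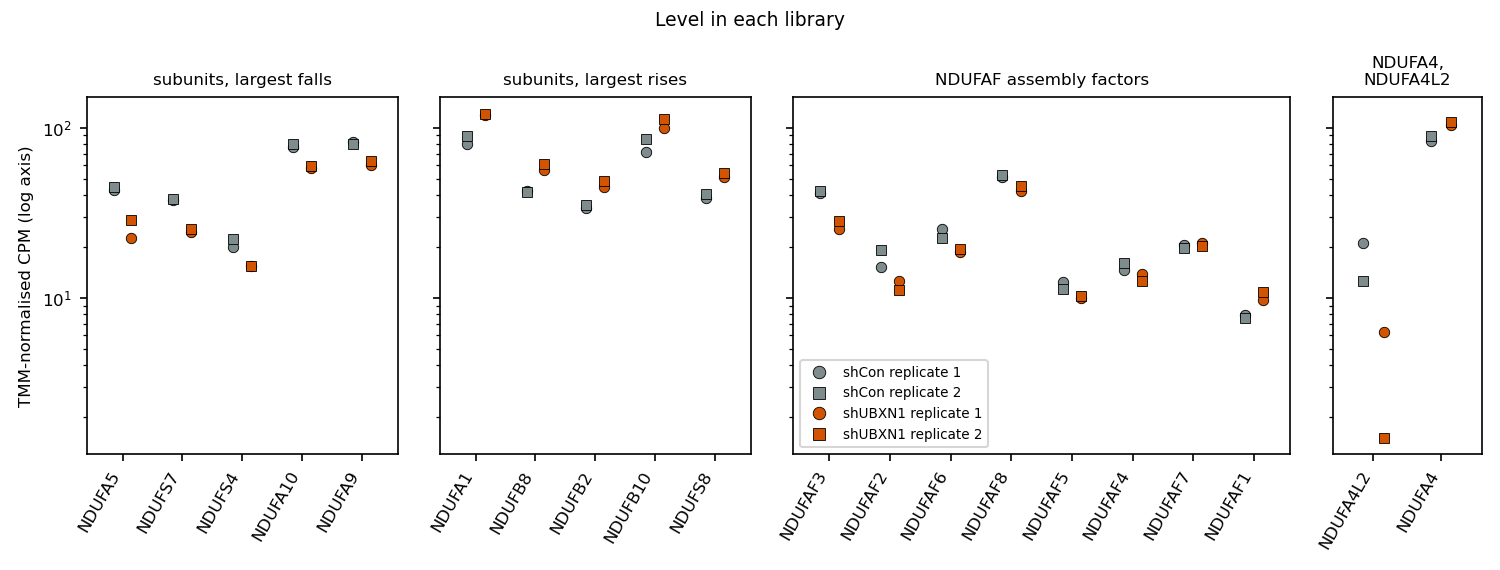
TMM-normalised CPM, on a log axis, in each of the 4 libraries for the 5 subunit genes with the largest falls and the 5 with the largest rises among those called, the 8 NDUFAF genes, and NDUFA4 with NDUFA4L2. Circles are replicate 1 and squares replicate 2. NDUFA5 drops from 43.3 and 44.9 to 22.5 and 28.8, NDUFA1 climbs from 80.3 and 89.4 to 119 and 121, and NDUFA4L2 is lowest in shUBXN1 replicate 2 at 1.50.

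The assembly factors that fell act at several steps of assembly. NDUFAF3, which works with NDUFAF4 on the Q module (chr3:49020459-49023495, plus strand), was at 41.2 and 42.3 CPM in shCon and at 25.5 and 28.2 in shUBXN1. Its log2 fold change of -0.64 (SE 0.0886, adjusted p = 2.79e-05) was the lowest of the 8 and was called in all 14 alternative settings. NDUFAF4, its partner, was at 14.5 and 16.0 CPM in shCon and at 13.8 and 12.6 in shUBXN1, which did not pass the test (-0.20, SE 0.121, adjusted p = 0.169). NDUFAF2, a paralogue of the subunit NDUFA12 that acts late, when the N module joins, was at 15.2 and 19.2 CPM in shCon and at 12.5 and 11.1 in shUBXN1 (-0.54, SE 0.136, adjusted p = 0.00378). The fall of NDUFAF2 was not called without shCon replicate 2 (-0.38, adjusted p = 0.0762). NDUFAF6, which acts early with the Q module, was at 25.5 and 22.6 CPM in shCon and at 18.5 and 19.3 in shUBXN1 (-0.35, SE 0.105, adjusted p = 0.0113). It was not called without shCon replicate 1 (-0.26, adjusted p = 0.156).

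NDUFAF8 and NDUFAF5 form a pair, and NDUFAF5 hydroxylates an arginine of NDUFS7. NDUFAF8 was at 51.2 and 52.9 CPM in shCon and at 42.6 and 45.7 in shUBXN1 (-0.24, SE 0.0793, adjusted p = 0.0196). This call was lost without shCon replicate 1 (-0.26, adjusted p = 0.0630), shCon replicate 2 (-0.23, adjusted p = 0.166) or shUBXN1 replicate 1 (-0.19, adjusted p = 0.0576). NDUFAF5 was at 12.3 and 11.2 CPM in shCon and at 9.98 and 10.2 in shUBXN1, which did not pass the test (-0.22, SE 0.134, adjusted p = 0.183). NDUFAF7, a protein arginine methyltransferase, was at 20.5 and 19.5 CPM in shCon and at 21.0 and 20.1 in shUBXN1, with overlapping groups (0.04, SE 0.102, adjusted p = 0.767). NDUFAF1, which takes part in building the membrane arm, was the one assembly factor gene of this name that rose. It was at 7.91 and 7.62 CPM in shCon and at 9.70 and 10.8 in shUBXN1 (0.40, SE 0.148, adjusted p = 0.0341). The rise of NDUFAF1 was not called by DESeq2 (adjusted p = 0.132), nor without shCon replicate 1 (0.42, adjusted p = 0.0912), shCon replicate 2 (0.35, adjusted p = 0.170) or shUBXN1 replicate 2 (0.31, adjusted p = 0.128).

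Among complex I assembly factors with other names, falls outnumbered rises. The share that fell was near that of genes in the expression range of the subunits. Of 12 listed, 1 rose (8.33%) and 5 fell (41.7%), with a median log2 fold change of -0.20. Over all genes tested 28.0% were higher and 28.2% lower, and 38.5% were lower among genes in the expression range of the subunits. The gene that rose, DMAC2 at 0.22, was not called by DESeq2 or limma-voom, with the GC trend removed, or without shCon replicate 1, shCon replicate 2 or shUBXN1 replicate 2. DMAC1, a distal membrane arm assembly component, was at 11.3 and 12.9 CPM in shCon and at 6.75 and 8.07 in shUBXN1 (-0.71, SE 0.152, adjusted p = 0.00116). TMEM70, which assists complex I and ATP synthase, was at 73.0 and 73.1 CPM in shCon and at 46.7 in both shUBXN1 libraries (-0.65, SE 0.0743, adjusted p = 4.59e-06).

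NDUFA4 and NDUFA4L2 are paralogues, and NDUFA4L2 is known as a target of hypoxia-inducible factor. NDUFA4 (chr7:10931943-10940153, minus strand) was at 83.8 and 89.3 CPM in shCon and at 104 and 108 in shUBXN1, a rise of 0.30 on the log2 scale (SE 0.0740, adjusted p = 0.00362). Without shCon replicate 1 (0.25, adjusted p = 0.0669) or shCon replicate 2 (0.33, adjusted p = 0.0520) it was not called. NDUFA4L2 (chr12:57234903-57240715, minus strand) was at 21.0 and 12.5 CPM in shCon and at 6.30 and 1.50 in shUBXN1, which are 560 and 293 against 156 and 35 counts. The groups did not overlap, but the libraries within each group were far apart. NDUFA4L2 was the 1 gene among the 48 that passed the 2-fold rule, with a log2 fold change of -2.09 (SE 0.378, adjusted p = 0.000299 by edgeR and 0.0659 by DESeq2). Its value was -3.49 without shUBXN1 replicate 1, -1.43 without shUBXN1 replicate 2, -1.66 without shCon replicate 1 and -2.44 without shCon replicate 2. Its exons overlap those of SHMT2 on the opposite strand over 3.50% of their length, and SHMT2, a serine hydroxymethyltransferase, fell too (-1.53, SE 0.0751, adjusted p = 1.40e-09). Per length of transcript, NDUFA4 was 1.73 and 3.11 times as abundant as NDUFA4L2 in shCon and 7.15 and 31.5 times in shUBXN1. NDUFC2-KCTD14, which shares all of its counted exons with other genes, was at 23.5 and 21.7 CPM in shCon and at 21.1 and 29.2 in shUBXN1, and did not pass the test (0.15, adjusted p = 0.357).

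The subunit genes spanned a wide range of levels. TPM was computed from the counts and the deposited gene lengths, without TMM scaling. NDUFA1 was the highest subunit gene in TPM, with a mean of 404 in shCon and 596 in shUBXN1. Ranks and ratios between genes on this scale depend on the deposited length. For some genes it differed widely from the canonical transcript of the annotation, as for NDUFA11 (2406 against 575 bases) and NDUFB5 (671 against 4199). The next were NDUFS5 (356 and 369), NDUFB4 (241 and 201) and NDUFB10 (234 and 326). The lowest were NDUFV3 (8.86 and 7.84), NDUFA5 (17.1 and 10.3) and NDUFA9 (19.5 and 15.5), each counted over a deposited length of more than 5000 bases. The TPM ratio of the highest to the lowest subunit gene was 45.6 in shCon and 76.0 in shUBXN1. Across the 37 subunit genes, the log2 fold change correlated with log2 mean TPM at r = 0.45 (rho = 0.29), with GC content at r = 0.27 (rho = 0.28, against r = 0.16 over all genes tested) and with log2 length at r = -0.29 (rho = -0.18). These are descriptions across genes that share the same 4 libraries.

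**Figure D3:**
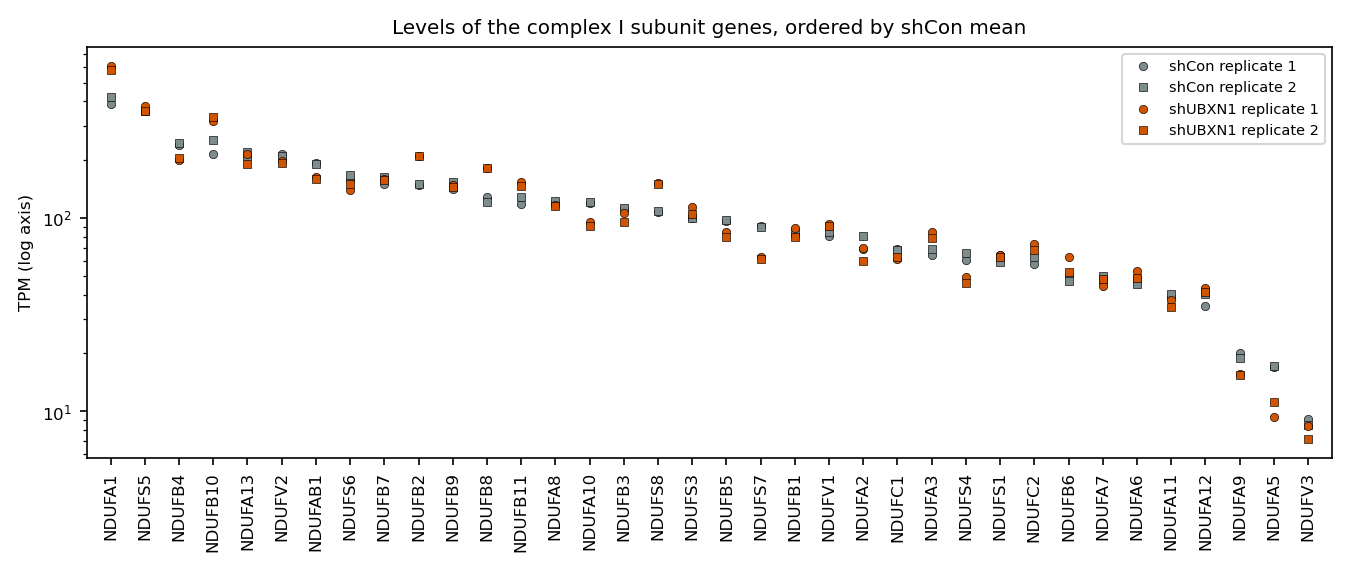
TPM, on a log axis, of the complex I subunit genes reported here in each library, ordered by their mean in shCon. NDUFA1 stands highest, with means of 404 in shCon and 596 in shUBXN1, and NDUFV3 lowest, with 8.86 and 7.84.

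Summed over genes, falls and rises largely offset each other among the subunits but not among the assembly factors. The summed TPM of the 37 subunit genes was 4310 and 4480 in shCon and 4760 and 4600 in shUBXN1. On the CPM scale, which gives long transcripts more weight, the same sums were 2099 and 2236 against 2083 and 2164, so the groups overlapped there. The 8 NDUFAF genes summed to 461 and 457 TPM in shCon and to 394 and 389 in shUBXN1. By module, the N module sum was lower in shUBXN1 on both scales (785 and 811 against 765 and 748 TPM, and 503.6 and 526.4 against 483.7 and 503.3 CPM). The Q module sum overlapped between groups in TPM (436 and 443 against 449 and 428) but not in CPM (343.4 and 355.6 against 291.0 and 302.9). Within it NDUFS8, which rose, had a deposited length of 737 bases, and NDUFA9, which fell, one of 8356 bases. The proximal arm summed to 1420 and 1480 TPM in shCon against 1670 and 1580 in shUBXN1, and the distal arm to 1670 and 1740 against 1870 and 1840. The proximal and distal arms also overlapped between groups in CPM.

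**Figure D4:**
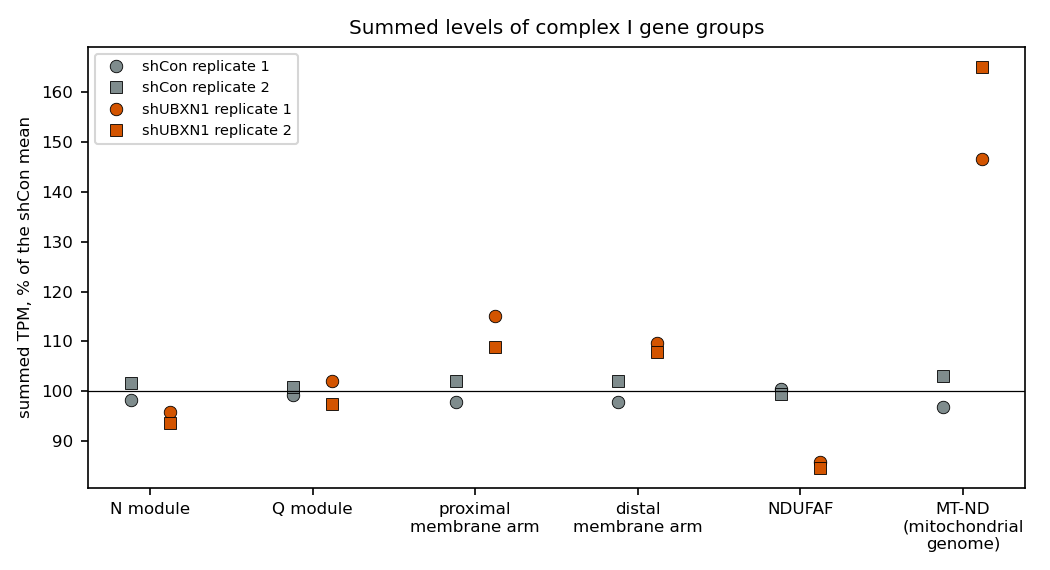
Summed TPM of each complex I gene group in each library, as a percentage of its mean over both shCon libraries. The NDUFAF genes are at 85.8% and 84.7% in shUBXN1, the proximal arm at 115% and 109%, and the complex I genes of the mitochondrial genome at 146% and 165%. TPM is not scaled by TMM. In TMM-scaled CPM the proximal arm sums to 509.9 and 548.3 in shCon against 532.4 and 540.7 in shUBXN1, so its groups overlap. The NDUFAF genes sum there to 188.3 and 191.3 in shCon against 153.4 and 158.2 in shUBXN1.

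The complex I subunits encoded in the mitochondrial genome were all higher by sign in shUBXN1. Of the 7 MT-ND genes, 4 rose (57.1%, against 28.0% of all genes tested) and 0 fell (against 28.2%), with a median log2 fold change of 0.35. At an unadjusted p under 0.05, 6 were higher and 0 lower, and DESeq2 called 6 higher and 0 lower. Without shUBXN1 replicate 1 all 7 were called higher, without shCon replicate 1 only 3 were, with a median of 0.29, and without shUBXN1 replicate 2 the median was 0.25. MT-ND4L, a proton-pumping subunit read from the same transcript as MT-ND4, was at 855 and 954 CPM in shCon and at 1420 and 1790 in shUBXN1 (0.83, SE 0.109, adjusted p = 1.63e-05). MT-ND4 was at 5570 and 6220 CPM in shCon and at 9350 and 11300 in shUBXN1 (0.81, SE 0.117, adjusted p = 4.33e-05). MT-ND1 and MT-ND6 rose by 0.60 and 0.35, and MT-ND5 at 0.20, MT-ND3 at 0.19 and MT-ND2 at 0.17 did not pass the test. The summed MT-ND level was 6.80 and 6.96 times the summed nuclear subunit level in shCon and 9.31 and 10.8 times in shUBXN1, on the TPM scale. In these libraries the share of counts on the whole mitochondrial genome rose as well (5.28% and 5.59% against 7.43% and 8.27%), and its part in the MT-ND values was not tested.

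Among the other respiratory complexes, the nuclear genes called by edgeR went both ways in complexes III, IV and V but not in complex II. The shares over all genes tested were 28.0% higher and 28.2% lower. Complex II had 0 of 4 genes higher and 2 lower, with SDHB at -0.53 and SDHD at -0.27, and a median of -0.20. DESeq2 and an unadjusted p under 0.05 also gave 0 higher and 2 lower for complex II, and total count scaling gave 1 higher. Complex III had 2 of 9 higher and 4 lower, with CYC1, the gene of cytochrome c1, at -1.14 and UQCR11 at 0.96. Complex IV had 4 of 10 higher and 2 lower, with COX6B1 at 0.51 and COX7B at -0.31, and without shCon replicate 1 it had 1 higher and 1 lower. Without shCon replicate 2, complex IV had 2 higher and 0 lower, and complex III had 1 higher and 2 lower. Complex V had 3 of 15 higher and 5 lower, with ATP5MC2 at -0.54 and ATP5F1E at 0.42, and 1 higher and 4 lower without shCon replicate 1.

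Several regulators of respiratory genes were lower in shUBXN1. Of the 8 tested, 0 rose and 5 fell by edgeR, by DESeq2 and at an unadjusted p under 0.05, with a median log2 fold change of -0.26, while PPARGC1A, the gene of the coactivator PGC-1alpha, was near 0 in all libraries and was not tested. Over all genes tested 28.0% were higher and 28.2% lower, and 38.5% were lower among genes in the expression range of the subunits. The count of falls was 2 without shCon replicate 1, 3 without shCon replicate 2 and 2 with limma on log2(TPM + 1). NRF1, nuclear respiratory factor 1, was at 19.5 and 20.8 CPM in shCon and at 13.9 and 14.5 in shUBXN1 (-0.50, SE 0.110, adjusted p = 0.00145). GABPA, the DNA-binding subunit of the ETS family factor also called NRF-2, was at 38.1 and 34.9 CPM in shCon and at 28.7 and 29.6 in shUBXN1 (-0.32, SE 0.0885, adjusted p = 0.00624). YY1, another factor that binds promoters of respiratory genes, was at 105 and 110 CPM in shCon and at 106 and 117 in shUBXN1 (0.05, SE 0.0768, adjusted p = 0.599).

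The letters that these factors are known to bind were searched in promoters, taken as 250 bases before to 50 bases after the RefSeq start (GRCh38.p14), on both strands. Of the NDUF-named genes, 32 subunit and 7 NDUFAF genes had a promoter there. The NRF1 core, CGCATGCG, was in 2.49% of 22199 protein-coding promoters, in 4 of the 32 subunit promoters and in 1 of the 7 NDUFAF promoters. AAGATGGC, for YY1, was in 3.53% of all promoters, in 6 subunit promoters and in 0 NDUFAF promoters. CCGGAAG, for ETS factors, was in 12.8% of all promoters, in 5 subunit promoters and in 1 NDUFAF promoter. These 3 strings did not overlap each other in any promoter printed here. A match is a description of the letters and not a measured binding site.

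The promoter of NDUFS7, the core subunit gene with the largest fall, was the one that held both the NRF1 and the YY1 letters. It is shown from 100 bases before the start to 30 bases after it (chr19:1383807-1383936, plus strand), with both strings in capitals. The NRF1 letters begin 74 bases before the start and the YY1 letters 17 bases after it.
NDUFS7: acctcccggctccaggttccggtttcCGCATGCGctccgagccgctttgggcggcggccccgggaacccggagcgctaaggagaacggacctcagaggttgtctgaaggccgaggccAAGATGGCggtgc

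The other promoters with the NRF1 letters are shown as stretches of 30 bases in the direction of the gene, the letters in capitals, so that their flanks can be compared. They lie at chr3:120596167-120596196 (plus strand) for NDUFB4, chr5:1801351-1801380 (plus) for NDUFS6, chr9:122159764-122159793 (minus) for NDUFA8 and chr20:13785014-13785043 (plus) for NDUFAF5.
NDUFB4: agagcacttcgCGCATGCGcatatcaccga
NDUFS6: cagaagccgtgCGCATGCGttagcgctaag
NDUFA8: gttgccggatgCGCATGCGcaggcgccgtg
NDUFAF5: agccgcgctggCGCATGCGcacaaaaagcg

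The 5 genes with the NRF1 letters had log2 fold changes of -0.60 for NDUFS7, -0.32 for NDUFB4, -0.22 for NDUFAF5, -0.21 for NDUFS6 and -0.12 for NDUFA8. NDUFS7 and NDUFB4 passed the test and the other 3 did not. The letters began 3 to 158 bases before the start.

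In all 6 subunit promoters with the YY1 letters, these lay after the start, beginning 10 to 25 bases from it. Within the same 50 bases after the start, 2.11% of all protein-coding promoters held them. The stretches are at chr12:4649113-4649142 (plus strand) for NDUFA9, chr5:53560649-53560678 (plus) for NDUFS4, chr19:54102865-54102894 (plus) for NDUFA3, chr22:42090729-42090758 (minus) for NDUFA6 and chr19:8321343-8321372 (minus) for NDUFA7.
NDUFA9: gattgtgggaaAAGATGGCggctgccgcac
NDUFS4: ttgcctgcagcAAGATGGCggcggtgtcaa
NDUFA3: ccgcggagacaAAGATGGCtgcgagtaagt
NDUFA6: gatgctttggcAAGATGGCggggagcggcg
NDUFA7: atcgcggacggAAGATGGCgtccgccaccc

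Of the genes with the YY1 letters, NDUFS7, NDUFS4 (-0.46) and NDUFA9 (-0.39) fell, and NDUFA7 at -0.12, NDUFA6 at 0.04 and NDUFA3 at 0.23 did not pass the test. Of the 5 subunit genes with the ETS letters, NDUFA1 rose (0.50), and NDUFA13 at -0.14, NDUFB7 at -0.04, NDUFS1 at -0.02 and NDUFS3 at 0.08 did not pass it.

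Some of these genes share exons with neighbours, and 27 of the 48 had fractional counts in at least 1 library, including genes with no annotated overlap such as NDUFC1, NDUFS3 and NDUFB11, and what divided the counts was not tested. On the same strand, annotated genes covered 90.0% of the exons of NDUFV2, 83.9% of NDUFA13, 77.9% of NDUFA7, 72.0% of NDUFB8 and 68.2% of NDUFA11. The readthrough gene that overlaps NDUFB8 held 14.5 to 36.6 counts per library. The readthrough gene over NDUFA13 rose from 128.4 and 130.0 counts in shCon to 231.9 and 245.6 in shUBXN1, and that over NDUFA11 from 63.4 and 78.3 to 97.1 and 113.7, by raw counts with no test. The readthrough gene over NDUFA7 was at 169.7 and 148.0 counts in shCon and at 141.1 and 63.2 in shUBXN1, a large share of the counts of NDUFA7 itself. The values of NDUFA13, NDUFA11 and NDUFA7 are therefore uncertain. Same-strand genes also covered 19.7% of the exons of NDUFC2 and 11.7% of those of NDUFA9. NDUFC2-KCTD14, over NDUFC2, held 510.6 to 683.3 counts per library, and the larger partner over NDUFA9 held 163.3 to 240.8. The part of these overlaps in the values of NDUFC2 and NDUFA9 was not tested. The gene over NDUFV2 was at 0 in every library. Whether reads were counted by strand is not given in the sources used here, so reads of NDUFB2, NDUFA2, NDUFA3, NDUFB9 and NDUFAF3 cannot be told apart from those of antisense neighbours over 11.2% to 27.4% of their exons. The same holds for NDUFS1 over 12.1% of its exons, where the antisense gene held at most 9.0 counts, and for NDUFA7 over 11.7%, where RPS28 held 2329.9 to 2870.8 counts against 289 to 349 for NDUFA7. The table also held 63 NDUF pseudogenes, of which 52 were at 0 in every library, and together they took 21.5 to 43.6 counts per library.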

How the data were processed

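The authors deposited 1 table of expected counts per gene, given to 2 decimals and not normalised, with a gene length. Of the values above 0, 62.4% to 64.6% per library were whole. The submitters' processing notes name HISAT2 2.0.4, StringTie 1.3.0 and GRCh37, whereas the paper's methods name GRCh38. Of the gene IDs, 99.7% matched GENCODE for GRCh38, and coordinates are from that annotation, since the table holds none. The counting tool and annotation release are not given in the sources used here. The methods name an shRFP control and another library kit than the labels, which name shCon. The methods name TPM and limma without saying on which values limma was run, and limma on log2(TPM + 1) was an alternative here.

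For each gene, rounded counts that passed filterByExpr entered the quasi-likelihood test of edgeR 4.0.16 (R 4.3.3) after TMM normalisation, shUBXN1 against shCon, n = 2 each, with 2 residual degrees of freedom per gene before information was shared across genes, and Benjamini-Hochberg adjustment over 16863 genes. The estimated coefficient of variation between libraries was 0.0711. Libraries of a group differed by more than counting noise, with a chi-square of 3.67 (shCon) and 7.85 (shUBXN1) times its degrees of freedom.

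Members and lists were chosen with earlier results of these data known. Every member was named except 1 whose own values are not reported here, though it stays in the counts, medians and sums. Per-library values, SE and adjusted p were given for the 5 largest rises and 5 largest falls among called subunit genes, every NDUFAF gene, NDUFA4, NDUFA4L2 and the core subunits, and for other lists the 2 largest changes among called genes. The further MT-ND, assembly factor, regulator, SHMT2 and marker genes were named after their values were seen. Alternatives were DESeq2 1.42.0, limma 3.58.1 (voom, and log2(TPM + 1)), total count scaling, no filter, at least 10 counts in every library, a replicate block, leaving out each library, GC trend removal, unrounded counts and protein-coding genes only.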

Additional observations from a re-analysis of the deposited data

How the results depend on the processing

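Against 6 subunit genes higher and 10 lower, total count scaling gave 10 higher and removal of the GC trend gave 15 lower. Over all genes tested, total count scaling called 5324 of 16863 higher, and GC trend removal called 4867 of 16830 lower. Limma on log2(TPM + 1) and at least 10 counts in every library each gave 9 higher, and protein-coding genes only gave 8. Over all genes, these settings called 4742 of 16863, 4449 of 14974 and 4343 of 13511 higher. The rule of a 2-fold change with an unadjusted p under 0.05 gave 0 subunit and 0 NDUFAF genes in either direction. Leaving out each library in turn gave 5 to 7 subunit genes higher and 6 to 13 lower, the 6 without shCon replicate 2. For the NDUFAF genes it gave 0 to 1 higher and 2 to 4 lower, the 2 without shCon replicate 1 or shCon replicate 2. DESeq2 called 0 NDUFAF genes higher, and total count scaling called 2 lower. The subunit median of -0.121 moved to -0.038 under total count scaling and ran from -0.163 to -0.066 when a library was left out. The NDUFAF median of -0.228 moved to -0.157 with limma on log2(TPM + 1), -0.143 under total count scaling, -0.200 with at least 10 counts in every library and -0.208 with protein-coding genes only, and ran from -0.277 to -0.238 when a library was left out. The cause of these moves was not tested. Of 23 called members, 12 kept their call in all 14 settings and 0 changed sign, and 13 of the 25 members not called were called in at least 1 setting, such as NDUFA13 (-0.277) and NDUFB7 (-0.243) with the GC trend removed. Members that the edgeR test on all 4 libraries did not call changed sign. These were NDUFB1 (0.013 limma on TPM, 0.040 total counts), NDUFB7 (0.018 and 0.043 likewise), NDUFB9 (0.018 total counts), NDUFS1 (0.034 limma on TPM, 0.060 total counts, 0.003 with the count minimum, 0.024 with the GC trend removed), NDUFS5 (0.050, 0.076, 0.019 and 0.011 with limma on TPM, total counts, the count minimum and protein-coding genes), NDUFV1 (-0.026 with the GC trend removed) and, over the fits that leave out 1 library, NDUFA12 (-0.012 to 0.235), NDUFA6 (-0.009 to 0.077), NDUFAF7 (-0.011 to 0.076), NDUFB7 (-0.117 to 0.020), NDUFB9 (-0.151 to 0.007), NDUFC2-KCTD14 (-0.119 to 0.363), NDUFS1 (-0.079 to 0.016) and NDUFS5 (-0.035 to 0.002).

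The labels number replicates 1 and 2 in both groups but do not say that a number marks a shared culture or day. Deviations of same-numbered libraries correlated at 0.039 over the genes tested and 0.635 over the 48 members. The members include NDUFA4L2, whose libraries were far apart in both groups (21.0 and 12.5 CPM in shCon, 6.30 and 1.50 in shUBXN1). The correlation without this gene was not computed. With a replicate block, 7 subunit genes were called higher and 15 lower (5 of them in the N module, NDUFV2 included), 1 NDUFAF gene higher and 4 lower, with medians of -0.123 and -0.228. Of all 16863 genes tested, the fit with the block called 5000 higher and 5023 lower. With 2 libraries per group, precision is limited by the spread between libraries more than by counting.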

Other observations

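Iron-sulfur cluster assembly supplies the cofactors of the N and Q modules. Of 14 genes of this pathway tested, 2 rose and 3 fell, with a median log2 fold change of -0.10. ISCA1, which acts late in the pathway, was at 37.4 and 40.7 CPM in shCon and at 53.1 and 53.4 in shUBXN1 (0.45, SE 0.0806, adjusted p = 0.000278 by edgeR). ISCU, the scaffold on which clusters are formed, was at 76.8 and 77.5 CPM in shCon and at 98.7 and 111 in shUBXN1 (0.45, SE 0.0786, adjusted p = 0.000243 by edgeR). The genes that fell were GLRX5, a glutaredoxin that passes clusters on, at -0.41, NFS1, the cysteine desulfurase, at -0.36, and HSPA9, a mitochondrial chaperone, at -0.35. At 3 of 14, the share that fell was 21.4%, against 28.2% of all genes tested.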
